A study of Saccharomyces cerevisiae with 3 samples.

Results

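The genes described here encode 10 of the main mannoproteins of the Saccharomyces cerevisiae cell wall: the Pir (proteins with internal repeats) genes PIR1, HSP150, PIR3, CIS3 and PIR5, and the glycosylphosphatidylinositol (GPI) mannoprotein genes CWP1, CWP2, CCW12, CCW14 and SED1. They were picked by name, with earlier results of these data known. All 10 were found among the 6178 open reading frames (ORFs) of the deposited table. Their systematic names, in the same order, are YKL164C, YJL159W, YKL163W, YJL158C, YJL160C, YKL096W, YKL096W-A, YLR110C, YLR390W-A and YDR077W. Array comparative genomic hybridisation was used to set the genomic DNA of 3 strains against each other: R2 IVo, an intraspecific hybrid, and its parents Sc1 (parental strain 1) and Sc2 (parental strain 2). The sources name 1 hybrid strain in these samples and describe growth by industrial cultivation and drying. The 3 samples are the 3 pairs R2 IVo over Sc1, R2 IVo over Sc2 and Sc1 over Sc2, each combined by the authors over duplicate, dye-swapped arrays, so there is 1 value per ORF and sample. The title of the series names mannoprotein release as a property of such hybrids, and the comparisons below ask whether the DNA of these wall genes differed between the strains.

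The outer layer of the yeast wall consists of heavily mannosylated proteins held on a frame of glucan. Pir proteins are cut by the protease Kex2 on their way out and are linked directly to wall glucan through glutamines in short repeats, in a bond that mild alkali breaks. GPI mannoproteins are first fixed to the plasma membrane by a lipid anchor and are then transferred to wall glucan. Both kinds are part of the mannoprotein that yeast sheds into wine during fermentation and autolysis. A hybridisation ratio measures DNA that binds the array probe. It does not measure RNA, protein or mannoprotein release, and copies elsewhere in the genome that bind the same probe can hold a ratio near 0.

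Values are log2 ratios of the first-named over the second-named strain, centred on the median of each sample. The base of the logarithm and the common direction were not stated and are likely readings. With base e every log2 value would be larger in size by the same factor, and with the common direction reversed every sign would turn. Each strain difference was estimated with limma from the 3 samples together, as the sides of a triangle, with 1 residual degree of freedom per ORF, over the 6123 ORFs measured in all samples. A call is an adjusted p under 0.05. Calls were made for 41 ORFs, 0.67% of those tested, for R2 IVo over Sc1, for 56 ORFs (0.915%) for R2 IVo over Sc2 and for 121 ORFs (1.98%) for Sc1 over Sc2.

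None of the 10 wall mannoprotein genes was called by limma in any of the 3 comparisons (0 of 10, beside background shares of 0.67%, 0.915% and 1.98%). With backgrounds this low, 0 of 10 does not set these genes apart from other ORFs. At an unadjusted p under 0.05, 0 members passed for R2 IVo over Sc1, 1 (SED1) for R2 IVo over Sc2 and 0 for Sc1 over Sc2, beside 7.99%, 7.95% and 9.57% of all ORFs, so a count of 0 or 1 of 10 is near the background. The lowest and highest estimates were −0.13 (CCW14) and 0.12 (SED1) for R2 IVo over Sc1, −0.11 (CWP1) and 0.22 (SED1) for R2 IVo over Sc2, and −0.10 (CWP1) and 0.093 (SED1) for Sc1 over Sc2. The members' median estimates were 0.0092, 0.026 and 0.052 in that order of comparisons, beside medians over all ORFs of 0.0027, −0.00033 and 0.0020. The median size of a member's estimate, its sign set aside, was 0.036, 0.063 and 0.067, beside 0.055, 0.053 and 0.055 over all ORFs.

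**Figure D1:**
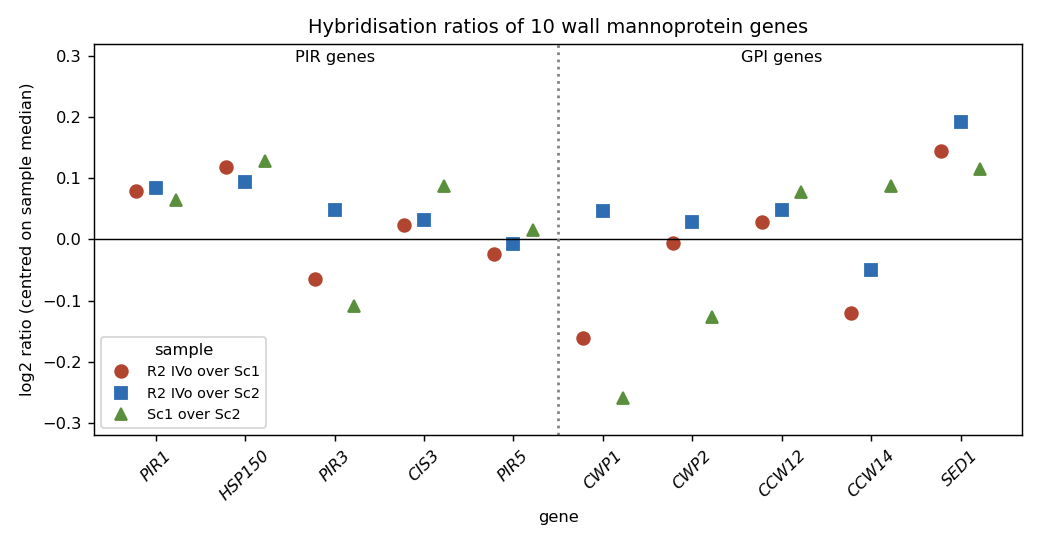
Centred log2 ratio (vertical axis) of each of the 10 genes (horizontal axis) in the samples R2 IVo over Sc1 (circles), R2 IVo over Sc2 (squares) and Sc1 over Sc2 (triangles), 1 point per sample. All points lie between −0.26 (CWP1, Sc1 over Sc2) and 0.19 (SED1, R2 IVo over Sc2). PIR1, HSP150, CIS3, CCW12 and SED1 are above 0 in all 3 samples.

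The Pir genes lie in 2 tandem groups, PIR1 beside PIR3 on the left arm of chromosome XI, and PIR5, HSP150 and CIS3 in a row on the left arm of chromosome X. PIR1, a glycoprotein gene whose product is needed for wall stability, had centred log2 ratios of 0.079 in the R2 IVo over Sc1 sample, 0.084 in the R2 IVo over Sc2 sample and 0.065 in the Sc1 over Sc2 sample. Its neighbour PIR3 had −0.065, 0.049 and −0.11 in the same order of samples. PIR1 was therefore slightly above 0 in all 3 samples, while PIR3 took both signs. The estimates of PIR1 were 0.059 ± 0.062, 0.10 ± 0.062 and 0.045 ± 0.062 (SE from the limma fit of 3 samples, with variance pooled over ORFs). Those of PIR3 were 0.0093 ± 0.074, −0.025 ± 0.074 and −0.035 ± 0.074. The limma adjusted p lay between 0.777 and 0.980 for both genes. None of these differences exceeded 2 SE.

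HSP150, also known as PIR2, encodes a heat-induced Pir protein that is both wall-bound and secreted into the medium. Its centred log2 ratios were 0.12 for R2 IVo over Sc1, 0.094 for R2 IVo over Sc2 and 0.13 for Sc1 over Sc2, the highest of the 5 Pir genes in each sample. The largest estimate of any Pir gene in size was that of HSP150 for R2 IVo over Sc2, 0.145 ± 0.068 (limma adjusted p = 0.666), and 11.6% of all ORFs had a larger one there. Its other estimates were 0.067 ± 0.068 for R2 IVo over Sc1 and 0.078 ± 0.068 for Sc1 over Sc2. None of these passed the test.

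CIS3, also known as PIR4, encodes a Pir protein of the wall of growing cells. It had 0.024, 0.032 and 0.087 in the samples R2 IVo over Sc1, R2 IVo over Sc2 and Sc1 over Sc2, and estimates of −0.0023 ± 0.063, 0.058 ± 0.063 and 0.061 ± 0.063. PIR5, which encodes a further protein of the family, had −0.024, −0.0070 and 0.016 in the same samples. With estimates of −0.024 ± 0.061, −0.0073 ± 0.061 and 0.016 ± 0.061, PIR5 was the member with the smallest values over the 3 samples. HSP150 thus had the largest ratios of the chromosome X row in every sample.

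Among the GPI genes, SED1 had the highest ratios. SED1 encodes the most abundant wall glycoprotein of stationary-phase cells, which contributes to resistance against lytic enzymes. Its centred log2 ratios were 0.145 for R2 IVo over Sc1, 0.193 for R2 IVo over Sc2 and 0.115 for Sc1 over Sc2, all above 0. The estimate for R2 IVo over Sc2 was 0.22 ± 0.063, a 1.16-fold ratio with a 95% interval of 1.05 to 1.29, and the unadjusted p from limma was 0.0127. It was not called, with a limma adjusted p of 0.409, and 4.64% of all ORFs had a larger estimate in size in that comparison. An estimate of 0.42 would have been needed for a call at its SE. For R2 IVo over Sc1 the estimate was 0.12 ± 0.063 (limma adjusted p = 0.718) and for Sc1 over Sc2 it was 0.093 ± 0.063 (limma adjusted p = 0.740). SPI1, a GPI wall protein gene related to SED1 that is induced by weak acids, was at −0.080, −0.032 and 0.049 and was not called.

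CCW14, also called SSR1, encodes a glycoprotein of the inner wall layer and had the lowest estimate of the members against Sc1. Its centred log2 ratios were −0.12 for R2 IVo over Sc1, −0.050 for R2 IVo over Sc2 and 0.088 for Sc1 over Sc2. The R2 IVo over Sc1 estimate was −0.13 ± 0.061 (limma adjusted p = 0.699), with a 95% interval of −0.28 to 0.022. The other estimates were −0.044 ± 0.061 and 0.082 ± 0.061. The next measured ORF on the right arm of chromosome XII, ART10, an arrestin-related gene, had centred log2 ratios of −0.14, −0.040 and 0.099 in the same order, close to those of CCW14. Neither gene was called.

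CCW12 encodes an abundant small mannoprotein that helps to keep newly formed wall stable. Its centred log2 ratios were 0.028, 0.048 and 0.077 in the samples R2 IVo over Sc1, R2 IVo over Sc2 and Sc1 over Sc2, and its estimates were 0.0090 ± 0.062, 0.067 ± 0.062 and 0.058 ± 0.062. YDR134C, a pseudogene in the annotation with the symbol CCW22 and a relative of CCW12, had −0.175, −0.068 and −0.304 in the same samples. Its estimates were −0.038 ± 0.099, −0.21 ± 0.099 and −0.17 ± 0.099 and were not called. The −0.21 for R2 IVo over Sc2 stood beside −0.068 in that sample itself, so the samples of YDR134C did not add up closely. Whether the probes of CCW12 and YDR134C bind each other's DNA was not tested.

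CWP2 and CWP1, which encode wall mannoproteins attached through remnants of the GPI anchor, lie side by side on the left arm of chromosome XI, CWP2 being linked to survival at low pH. CWP1 had centred log2 ratios of −0.16 for R2 IVo over Sc1, 0.047 for R2 IVo over Sc2 and −0.26 for Sc1 over Sc2. CWP2 had −0.0050, 0.029 and −0.13. Both genes were lowest in the Sc1 over Sc2 sample and above 0 in R2 IVo over Sc2. The estimates were −0.0057 ± 0.11, −0.11 ± 0.11 and −0.10 ± 0.11 for CWP1 and 0.049 ± 0.068, −0.025 ± 0.068 and −0.073 ± 0.068 for CWP2, with limma adjusted p between 0.830 and 0.990 for both genes.

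**Figure D2:**
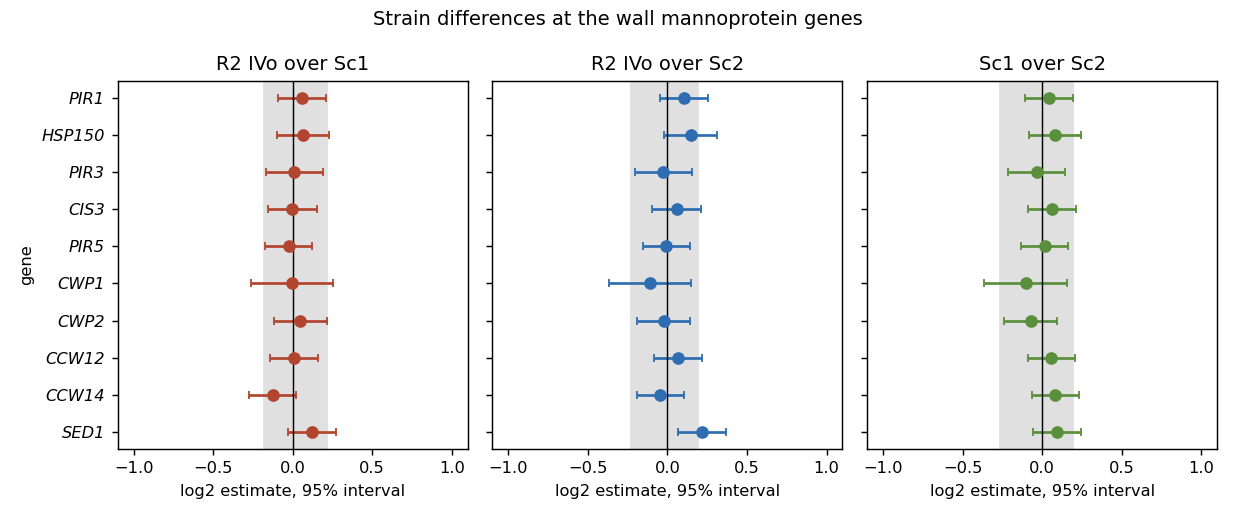
Log2 estimates (points) with 95% intervals from limma (bars) for the 10 genes in the comparisons R2 IVo over Sc1 (left), R2 IVo over Sc2 (middle) and Sc1 over Sc2 (right). The grey band holds the central 95% of the estimates of all ORFs, and every interval but that of SED1 for R2 IVo over Sc2 holds 0.

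All 30 intervals (10 genes, 3 comparisons) lay between −0.37 and 0.37 in log2, or between 0.774-fold and 1.29-fold. All therefore stayed inside −0.5 to 0.5, and 29 of 30 held 0. With a natural logarithm as the base, the outermost bounds would be −0.53 and 0.53 in log2. The intervals combine a gene's own spread among the 3 samples (1 residual degree of freedom) with a variance pooled over all ORFs. The pooled part holds 5.30 of the 6.30 degrees of freedom. An error that follows the DNA of 1 strain through both of its samples is not covered by the intervals. For the 9 genes other than CWP1 the SE lay between 0.061 and 0.074, and an estimate of between 0.35 and 0.53 in size would have been called, depending on the gene and the comparison. For CWP1 the size needed reached 0.77. Smaller estimates would not have been called in this fit.

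Ordered by their estimates, the members ran from SED1, HSP150 and PIR1 at the top to CCW14 at the bottom for R2 IVo over Sc1, and from the same 3 genes to CWP1 for R2 IVo over Sc2. For Sc1 over Sc2 the order ran from SED1, CCW14 and HSP150 to PIR3, CWP2 and CWP1. Of the 27 gaps between members next to each other in these orders, 1 exceeded its own SE (PIR5 above CCW14 for R2 IVo over Sc1, 0.10 ± 0.087). None exceeded 2 SE. Sorting makes gaps between adjacent ranks small by construction, so these gaps say nothing about members further apart, which were not compared. The Pir genes had median estimates of 0.0093, 0.058 and 0.045 and the GPI genes 0.0090, −0.025 and 0.058 in the 3 comparisons in the order above. The SD among the 5 estimates was 0.039, 0.072 and 0.044 for the Pir genes and 0.091, 0.13 and 0.093 for the GPI genes. In 5 of the 10 genes, PIR1, HSP150, CIS3, CCW12 and SED1, all 3 centred ratios were above 0, as in 13.1% of all ORFs. The members share arrays, all but CCW12, CCW14 and SED1 lie beside another member, and they were picked with results in view. This share therefore carries no test.

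The 3 samples allow a check of each gene, because R2 IVo over Sc1 plus Sc1 over Sc2 should equal R2 IVo over Sc2. The amount by which the values miss this equality, called the closure, was −0.47 for CWP1, and 1.91% of all ORFs had a larger one in size. The direct R2 IVo over Sc1 value of CWP1 was −0.16, while the path through Sc2 gave 0.31. The direct R2 IVo over Sc2 value was 0.047 against −0.42 through Sc1, and the direct Sc1 over Sc2 value was −0.26 against 0.21 through R2 IVo. Direct and indirect values of CWP1 thus had opposite signs in all 3 comparisons, so that no order of the strains can be read from them. PIR3 had a closure of −0.22 and CWP2 of −0.16, and the direct and indirect values of both also differed in sign in all 3 comparisons. HSP150 was at 0.15, and its direct and indirect values differed in sign for R2 IVo over Sc1 (0.118 and −0.035) and for Sc1 over Sc2 (0.129 and −0.024). The other 6 members were between −0.0010 (PIR5) and 0.079 (CIS3). Among them, direct and indirect values differed in sign only for R2 IVo over Sc1, in CIS3 (0.024 and −0.055) and CCW12 (0.028 and −0.029). The SD of the closure was 0.19 over the 10 members, CWP1 included, and 0.19 over all ORFs. The median size of the closure was 0.073 over the members and 0.103 over all ORFs.

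**Figure D3:**
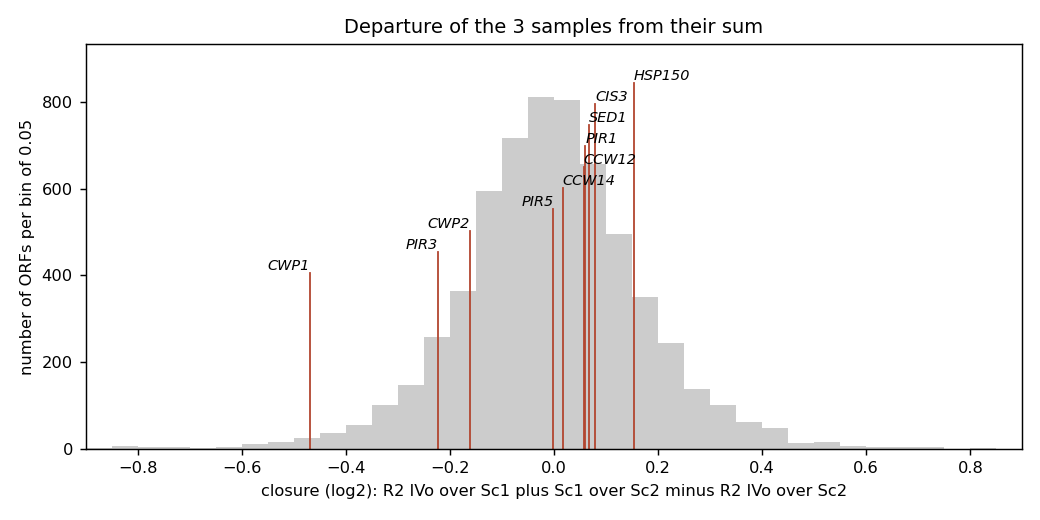
Number of ORFs (vertical axis) by closure in log2 (horizontal axis, bins of 0.05), with a red line for each of the 10 genes; line heights only separate the names, and 12 ORFs lie outside the axis. CWP1 lies in the left tail at −0.47, and the other 9 genes lie between −0.22 (PIR3) and 0.15 (HSP150).

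The 3 nearest measured ORFs on each side of the 6 loci, 36 in all, held no call in any comparison. By limma's unadjusted p under 0.05, 3 passed for R2 IVo over Sc1 (RAD55, JJJ2 and PPH3), 2 for R2 IVo over Sc2 (JJJ2 and MRP49) and 2 for Sc1 over Sc2 (YKL097C and RAD55), of 36 each, near the 7.99%, 7.95% and 9.57% of all ORFs at that threshold. RAD55, a recombinational repair gene next to SED1 on the right arm of chromosome IV, had centred log2 ratios of −0.23 for R2 IVo over Sc1, −0.047 for R2 IVo over Sc2 and 0.35 for Sc1 over Sc2. SED1 was above 0 in each of these samples. The estimates of RAD55 were −0.29 ± 0.069 (limma adjusted p = 0.292), 0.0083 ± 0.069 and 0.30 ± 0.069 (limma adjusted p = 0.158). JJJ2, a J-protein gene, lies 2 ORFs from PIR5 and was at −0.16 ± 0.063 and −0.22 ± 0.063 for R2 IVo over Sc1 and R2 IVo over Sc2.

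YKL097C, the measured ORF next to CWP2, had the only estimate over 0.5 in size among these neighbours. Its centred log2 ratio was −1.21 in the Sc1 over Sc2 sample, from a cell whose decimal point was restored, but 0.054 for R2 IVo over Sc1 and 0.018 for R2 IVo over Sc2. Its closure was −1.17. The Sc1 over Sc2 estimate was −0.82 ± 0.23, and it was not called (limma adjusted p = 0.272). YKL097C, CWP2 and CWP1 were all below 0 in the Sc1 over Sc2 sample and all had a negative closure. MTC2 and YJU2, the measured ORFs on either side of the 3, had the same signs. Their values were smaller in size, at −0.033 and −0.066 in that sample, with closures of −0.044 and −0.0070. What YKL097C, CWP2 and CWP1 share in that sample beyond their position was not tested.

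**Figure D4:**
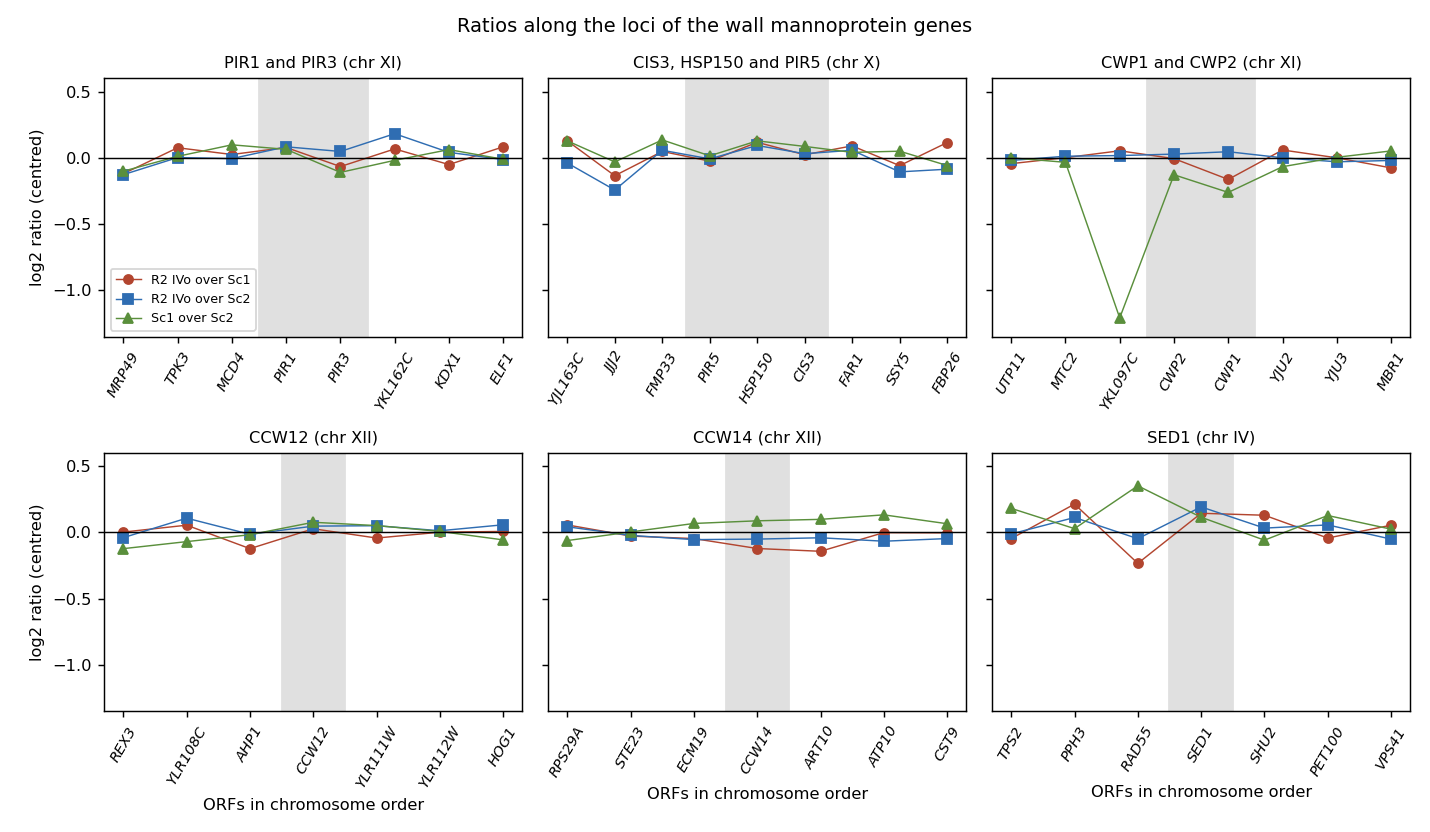
Centred log2 ratios (vertical axes) of the members (grey shading) and of 3 measured ORFs on each side, in chromosome order (horizontal axes), for the samples R2 IVo over Sc1 (circles), R2 IVo over Sc2 (squares) and Sc1 over Sc2 (triangles). YKL097C beside CWP2 reaches −1.21 in Sc1 over Sc2, and all other points lie between −0.26 (CWP1) and 0.35 (RAD55).

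CWP1 held the largest single value of the members, and the ORFs closest to it over the 3 samples, by Euclidean distance in log2, were RPS4B (0.038), TAO3 (0.059) and YDR154C (0.062). RPS4B, a ribosomal protein gene, had −0.19, 0.028 and −0.28 where CWP1 had −0.16, 0.047 and −0.26. The 3 ORFs had the same signs as CWP1 in each sample. They were picked by closeness to these same values, so the shared signs carry no test.

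Further lists cover the genes around the mannoproteins. Of 40 other genes of wall proteins and wall enzymes, 39 were tested and limma called 0 in any comparison, with 1, 4 and 3 at an unadjusted p under 0.05 for R2 IVo over Sc1, R2 IVo over Sc2 and Sc1 over Sc2, near the 7.99%, 7.95% and 9.57% of all ORFs at that threshold. Their median estimates were −0.0097, 0.0093 and −0.011, and their median size was 0.060, 0.037 and 0.049. PRY3, a sterol-binding wall protein gene, was highest in each comparison, at 0.25, 0.51 and 0.27 with an SE of 0.20, and its centred ratio was 0.85 in the R2 IVo over Sc2 sample but −0.089 and −0.069 in the others. UTH1, of the SUN family, was lowest for R2 IVo over Sc1 at −0.19 ± 0.065. FIT1, a GPI mannoprotein gene of iron uptake, was lowest for R2 IVo over Sc2 at −0.26 ± 0.063 and for Sc1 over Sc2 at −0.23 ± 0.063 (limma adjusted p = 0.272 in both).

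The cell wall integrity pathway carries signals from wall stress sensors through Pkc1 and the kinase Slt2 to Rlm1, a transcription factor whose targets include CWP1 and PIR genes. Of its 15 genes on the list, limma called 0, and the unadjusted p was under 0.05 for 0, 0 and 1 of them, the 1 being RLM1 (beside 7.99%, 7.95% and 9.57% of all ORFs). Their estimates ran from −0.090 (PKC1) to 0.13 (SLT2) for R2 IVo over Sc1. The range was −0.069 (MKK1) to 0.13 (RLM1) for R2 IVo over Sc2 and −0.095 (MKK1) to 0.16 (RLM1) for Sc1 over Sc2. SLT2 had estimates of 0.13, 0.061 and −0.068 with an SE of 0.15, from centred ratios of 0.364, −0.175 and 0.168. Ratio and estimate of SLT2 differed in sign for R2 IVo over Sc2 and for Sc1 over Sc2. Of 8 genes that attach GPI anchors, move GPI proteins to the wall or cut Pir proteins, limma called 0, and the unadjusted p was under 0.05 for 0, 1 and 0 of them, the 1 being GAB1 (beside 7.99%, 7.95% and 9.57% of all ORFs). KEX2, the protease gene, had estimates of 0.15 ± 0.11, −0.025 ± 0.11 and −0.17 ± 0.11. By these it was the highest of the 8 for R2 IVo over Sc1 and the lowest for Sc1 over Sc2. Its centred ratios were −0.023, 0.146 and −0.343 in the same order. Centred ratio and estimate of KEX2 thus differed in sign for R2 IVo over Sc1 and for R2 IVo over Sc2. GPI16, a subunit gene of the GPI transamidase, was highest for R2 IVo over Sc2 at 0.057 and for Sc1 over Sc2 at 0.087. DCW1, a putative mannosidase gene for wall transfer, was lowest for R2 IVo over Sc1 at −0.097, and GAB1, another transamidase subunit gene, for R2 IVo over Sc2 at −0.16.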

How the data were processed

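Per the labels' protocols, genomic DNA was cut with Hinf I, labelled with Cy3 or Cy5 and hybridised in pairs of strains, on duplicate arrays with dye swaps. The deposited table holds 1 log ratio per ORF and sample, recorded here as a score because 76 cells in 57 ORFs were whole numbers of 1000 or more in size. These were divided by 1000; 0 other cells exceeded 3 in size, and 0 members had such a cell. For the scanner, background correction, normalisation and averaging, the methods were not given in the sources used here. Therefore the signal over background is unknown, and the number of arrays limits the precision. Base 2 was read from the largest value (49.5-fold, against 278-fold with base e). That value came from a cell divided by 1000, and the reading of the base remains a likely one only.

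The 55 ORFs lacking a value were left out. Samples were centred on their median (−0.006, 0.004 and 0.013) and fitted with limma 3.58.1 in R 4.3.3, with Benjamini-Hochberg adjustment over 6123 ORFs. The prior SD was 0.082 on 5.30 degrees of freedom. The fit was tested on simulated data. P-values and 95% intervals rest on the array error among 3 samples, pooled for the most part over all ORFs, and not on the spread between cultures. Symbols came from RefSeq GCF_000146045.2 (5674 of 6178 ORFs matched), and gene order was read from the systematic names. Named genes were the 10 members, 3 measured ORFs on each side, the relatives SPI1 and YDR134C, the highest and lowest genes of each list, and the 3 ORFs nearest to the member with the largest value. Members and lists were chosen with earlier results of these data known. Alternatives were other centrings, moderation settings and filters.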

Additional observations from a re-analysis of the deposited data

How the results depend on the processing

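In none of the 6 alternative fits (no centring, centring on the mode, robust moderation, prior degrees of freedom set to 4, ORFs with restored decimal points left out, ORFs with 2 of 3 values kept) was a member or a gene of the 3 further lists called by limma in any comparison. The lowest adjusted p of a member lay between 0.402 and 0.574 over these fits. All 30 member estimates kept their sign, except that centring on the mode gave 0.016 for CIS3 and 0.012 for CWP1 for R2 IVo over Sc1. The direct sample alone moved 6 of the 30 estimates by more than their SE, and the indirect path alone moved 12. These were PIR3 and CWP1 for the direct sample, and HSP150, PIR3, CWP1 and CWP2 for the indirect path, each in all 3 comparisons. The moves of a gene all follow from its closure, so its 3 comparisons are not separate checks. The counts over all ORFs were 23 and 34 for R2 IVo over Sc1 and R2 IVo over Sc2 with prior degrees of freedom set to 4, and 15, 15 and 61 for R2 IVo over Sc1, R2 IVo over Sc2 and Sc1 over Sc2 without the ORFs with restored decimal points, which removes the largest ratios. No paired analysis was possible because each pair of strains has 1 sample.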
